A study of Mus musculus with 3 samples.

Results

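Microglia are the resident macrophages of the brain parenchyma. Disease-associated microglia are a state known from the surroundings of amyloid plaques and from damaged or developing white matter, in which genes for lipid uptake, lysosomes and phagocytosis are raised and the genes of surveying, homeostatic microglia are lowered. Lipoprotein lipase, galectin-3, osteopontin and the integrin CD11c are among the proteins by which the state is known, and the lipid-sensing receptor TREM2 is needed for its full form.

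The cells described here are hippocampal cells of mice in which several of these marker genes were detected together, and they are called lipid-type cells below. A cell was a member when it held 1000 or more UMIs (unique molecular identifiers, which count the RNA molecules captured), 500 or more genes, no more than 10% of UMIs from mitochondrial genes, and at least 1 UMI of 3 or more of the 7 genes Spp1, Lpl, Lgals3, Itgax, Clec7a, Gpnmb and Cst7. Cells with 20 or more summed UMIs of the MHC class II genes H2-Aa, H2-Ab1 and H2-Eb1 were left out, as were cells with 3 or more of the border macrophage genes Mrc1, Pf4, F13a1, Cbr2, Lyve1 and Cd163. Of 19791 cells that passed the depth filters, 100 were members, with 45 in run 1, 32 in run 2 and 23 in run 3. These exclusions removed 11 cells with 3 or more markers. Clec7a had no row in the count tables, so the choice rested on 6 genes. The comparison population was 17365 passing cells with none of the markers, 6067, 5930 and 5368 by run.

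The 3 runs form a single group. All animals were Cx3cr1CreERT2/+; Rosa26tdTomato/+; NestinTK-eGFP/+ mice, which were given 100 mg/kg tamoxifen for 4 days. From them, tdTomato+ cells were sorted from both hippocampi after perfusion and removal of myelin. The labels describe 12 animals, 6 male and 6 female, without saying which animals entered which run, and give no age. Cx3cr1 is active in border macrophages as well as in microglia, so the reporter does not mark microglia alone, and no untreated, diseased or otherwise different animals were compared. Comparisons are between cells of the same runs with n = 3 runs. The populations were compared within each run, so p-values weigh a change against how much that change varied between runs. That spread was estimated over all genes together. Whether the runs came from different animals is not stated, so it may be technical.

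The runs held 6226 to 7255 barcodes and 24225612 to 34140879 UMIs. Run 1 was sequenced most deeply per cell, and its file header gives an earlier version of the counting software. Run 3 stood apart in immediate early genes: 22.8% of its cells without markers had at least 10 summed UMIs of Fos, Egr1, Ier2 and Jun, which were reached by 6 such cells in run 1 and 12 in run 2. Runs shared 26 barcodes in pairs, none of them a lipid-type cell. Doublets were not called. Cells with both Xist and Y-linked transcripts numbered 3, 1 and 0 among the lipid-type cells of runs 1, 2 and 3.

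The lipid-type cells were rare in each run. Of the passing cells of run 1 they made up 0.644%, with 95% exact (Clopper-Pearson) bounds of 0.470 and 0.860. The share was 0.476% in run 2, with bounds of 0.326 and 0.672. Run 3 had 0.378%, bounded by 0.24 and 0.567. Over runs the share averaged 0.499% ± 0.134 (SD, n = 3 runs). These intervals cover counting error only, and those of neighbouring runs overlapped. Detection of 3 markers is easier in a deep cell. The median depth of the lipid-type cells was 7035, 5408 and 5988 UMIs in runs 1, 2 and 3, against 4343, 3386 and 3646 UMIs in cells without markers. The 6902, 6334 and 5909 cells of at least 2000 UMIs in runs 1, 2 and 3 were thinned at random to 2000 UMIs each. When the whole rule was applied to the thinned counts, 26 cells met it. Their mean share of the thinned cells was 0.137% ± 0.036 (SD, n = 3 runs). The exclusion limits were not lowered with depth. Cells excluded at full depth could therefore enter, and not all of the 26 are members. Cxcl9 was detected in 18.2% of the 11 such cells of run 2 and 12.5% of the 8 of run 3. Among the 100 members it was detected in 1, in run 2. Among cells of 4000 to 12000 UMIs the share was 0.936% ± 0.171 (SD, n = 3 runs).

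The threshold cut through a continuous distribution. Exactly 3 markers were found in 77 of the members, 4 in 20 and 5 in 3. Just outside it, 237 cells had exactly 2 markers. Lpl was detected in 83.1% of cells with exactly 3 markers and in 79.7% of cells with exactly 2, Lgals3 in 64.9% and 25.3%, Cst7 in 59.7% and 41.8%, Itgax in 50.6% and 35.9%, and Spp1 in 40.3% and 17.3%.

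The markers themselves chose the cells, so their levels are a description with no test. Lpl, the lipase that frees fatty acids from lipoproteins, was detected in 87 of 100 members, at 681, 646 and 1181 CPM (the gene's share of the UMIs of the population, scaled to the customary common total) in runs 1, 2 and 3. Lgals3, which codes for galectin-3, a lectin that binds damaged lysosomes and phagocytic cargo, was detected in 72 members at 227, 558 and 357 CPM. Cst7, which codes for the cathepsin inhibitor cystatin F, was detected in 66 members at 138, 247 and 301 CPM. Itgax, the gene of CD11c, was detected in 57 members at 119, 135 and 160 CPM, the narrowest range between runs of the 5 common markers.

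Spp1, which codes for the secreted phosphoprotein osteopontin, was detected in 42 members at 532, 141 and 818 CPM. Its level rested on few cells, since 1 cell held 113 of the 133 Spp1 UMIs of run 3 and 1 cell held 92 of the 192 in run 1. Gpnmb, a lysosomal glycoprotein gene, was detected in 2 members. In 13 cells with 3 or more T or NK cell markers, which should lack Lpl, no Lpl UMI was found, at a median depth of 3910 UMIs against 5920 in the members, and a count of 0 there allows a share of up to 23.1%. Other markers did occur there: Cst7 had a UMI in 5 of the 13 cells, Lgals3 in 4, Itgax in 2 and Spp1 in 1. These 13 include the member of run 3 with T and NK markers that is described below.

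**Figure D1:**
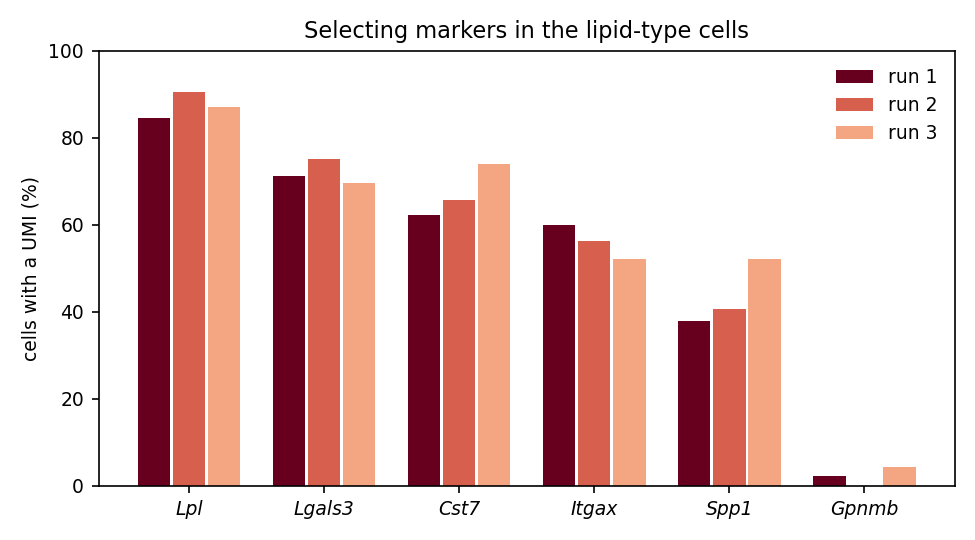
Share of lipid-type cells with at least 1 UMI of each selecting marker, as bars for runs 1, 2 and 3 (45, 32 and 23 cells). Lpl leads in each run and Gpnmb was found in 2 cells; Clec7a has no row in the tables and is not drawn.

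Markers came in several combinations. The 3 most frequent were Lpl, Lgals3 and Cst7 in 19 cells, Lpl, Lgals3 and Itgax in 14, and all 4 of these genes in 11. To set depth aside, the markers were also counted after thinning to 2000 UMIs. This used cells of at least 2000 UMIs whose thinned counts passed the MHC class II and border macrophage exclusions. Those limits are easier to pass at that depth, so some cells excluded at full depth could be among them. Lpl was detected in 44.1%, 52.8% and 53.8% of cells with Lgals3 in runs 1, 2 and 3, against 3.85%, 4.81% and 4.25% of cells without it. Itgax was detected in 20.6%, 16.7% and 3.85% of cells with Lgals3, against 0.750%, 0.431% and 0.499% of the others, and in run 3 that first share was 1 of 26 cells.

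The promoters of the markers are shown because the members were picked by these genes together. The lines give RefSeq promoter windows of 250 bases before to 50 bases after the start site (build GRCm38.p6, printed 5′ to 3′ on the strand of the gene) for 2 of the markers, Itgax at chr7:128129300-128129599 on the plus strand and Cst7 at chr2:150570165-150570464 on the plus strand. Capitals mark the pattern TGANTCA, in which N is any base and which was matched on both strands. It is looser than the site of AP-1 factors, which has C or G at the centre. The match in Itgax, TGAGTCA, has that centre, and the match in Cst7, TGATTCA, does not. The next line shows the promoter of Ctsd, a lysosomal protease gene, at chr7:142387778-142388077 on the minus strand, and the last that of P2ry12, the purinergic receptor gene of homeostatic microglia, at chr3:59262936-59263235 on the minus strand. In both, capitals mark CACGTG, a palindromic core bound by factors of the TFEB and MITF family and by other helix-loop-helix factors.
Itgax: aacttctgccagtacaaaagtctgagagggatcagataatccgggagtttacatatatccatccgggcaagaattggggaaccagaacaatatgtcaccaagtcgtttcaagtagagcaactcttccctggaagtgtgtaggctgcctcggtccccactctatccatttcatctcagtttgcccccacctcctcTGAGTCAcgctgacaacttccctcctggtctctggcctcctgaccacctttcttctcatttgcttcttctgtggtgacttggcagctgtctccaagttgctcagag
Cst7: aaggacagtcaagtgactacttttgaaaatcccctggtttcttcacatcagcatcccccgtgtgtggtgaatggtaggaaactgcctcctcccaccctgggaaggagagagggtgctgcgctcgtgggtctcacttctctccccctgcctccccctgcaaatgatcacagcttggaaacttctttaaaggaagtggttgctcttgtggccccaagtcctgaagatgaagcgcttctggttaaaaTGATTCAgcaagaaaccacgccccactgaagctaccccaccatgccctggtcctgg
Ctsd: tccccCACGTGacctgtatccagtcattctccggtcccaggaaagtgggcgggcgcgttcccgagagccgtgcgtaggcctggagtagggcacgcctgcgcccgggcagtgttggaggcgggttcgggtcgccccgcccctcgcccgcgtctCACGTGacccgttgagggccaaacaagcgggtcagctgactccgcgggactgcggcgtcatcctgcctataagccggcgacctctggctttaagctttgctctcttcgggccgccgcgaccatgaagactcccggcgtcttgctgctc
P2ry12: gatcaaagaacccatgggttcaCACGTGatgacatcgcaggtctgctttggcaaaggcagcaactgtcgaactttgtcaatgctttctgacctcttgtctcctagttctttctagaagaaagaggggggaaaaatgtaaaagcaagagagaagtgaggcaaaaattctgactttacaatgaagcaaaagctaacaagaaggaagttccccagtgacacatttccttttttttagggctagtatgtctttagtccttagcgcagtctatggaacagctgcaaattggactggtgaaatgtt

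The first match lay at position -56 from the start site in Itgax, -6 in Cst7, -245 in Ctsd and -228 in P2ry12. TGANTCA stood in 3 of the 8 promoters of the 6 marker genes and in 7.81% of all 32851 promoters of that length. Of the promoters of tested genes 4.71% held it, of those of the genes that were higher in lipid-type cells (below) 6.61%, and of those that were lower 4.39%. CACGTG stood in 5 of 25 promoters of the lysosome list, in 7.15% of all promoters, in 10.2% of those of tested genes, in 13.95% of those of higher genes and in 9.61% of those of lower genes. P2ry12, which was lower, carries it too. A match describes the letters only and shows no binding.

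The identity of the cells was checked on 8 microglia markers that the rule did not use. All 8 were detected in 53 members, 7 in 29, 6 in 13 and 5 in 3. The remaining 2 members had 2 and 3 of them. One, in run 3, had 13852 UMIs and all 7 T and NK cell markers, with 212 UMIs of Gzma and 113 of Xcl1, genes of cytotoxic lymphocytes. The other, in run 2, had 3020 UMIs, with 184 of the interferon-induced chemokine gene Cxcl9, 73 of Cd74 and 18 summed MHC class II UMIs, just under the limit of the rule. The label microglia therefore goes against these 2 cells, and results that rest on them are given without them. Fits said to be without the 2 cells also left out cells without selecting markers that had fewer than 5 of the 8. Of the comparison population 6049, 5911 and 5356 cells then remained in runs 1, 2 and 3. Summed microglia markers ran from 16560 to 25150 CPM over the runs in lipid-type cells and from 27700 to 35360 CPM in cells without markers. The summed level of the T and NK list was 2251 CPM in run 3, where that cell lies, and 0 in runs 1 and 2.

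Across the transcriptome, the lipid-type cells differed from cells without markers in many genes. UMIs of each population were added up within a run, and the sums were fitted with edgeR's quasi-likelihood test with the run as a block, and a gene was called when its p, adjusted over all genes by Benjamini and Hochberg, was under 0.05. The genes of the rule were left out of the calls. Of 11219 genes tested, 1486 were called (13.2%), 703 of them higher (6.27%) and 783 lower (6.98%), and the median log2 change of all genes was -0.10. DESeq2's Wald test called 845, with 547 higher and 298 lower. Counts of list members are to be read against the shares of all genes. The ranges of the 3 runs did not overlap between the populations for 3411 genes (30.4%), with lipid-type cells above for 10.3% of all genes and below for 20.1%. The fit gave all genes 1 estimate of spread, so genes very uneven between runs have p-values that are too small, and such genes are named as uneven below.

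The genes usually raised with the disease-associated state were raised here almost throughout. Of the 25 tested genes of a list of such genes outside the rule, 24 were higher and 0 lower, with a median log2 change of 1.81. Apoe, the lipid-carrying apolipoprotein, stood at 5208, 4740 and 4681 CPM in lipid-type cells of runs 1, 2 and 3 and at 566, 753 and 634 CPM in cells without markers. Its gene lies at chr7:19696109-19699188 on the minus strand (GRCm38). The populations did not overlap, and the difference was a log2 change of 2.95 ± 0.14 (SE, edgeR adjusted p = 9.43e-101). Cd63, a tetraspanin of late endosomes and lysosomes, stood at 2379, 3566 and 2897 CPM against 321, 403 and 323 CPM. It was detected in 99 of 100 members, again without overlap, with a log2 change of 3.1 ± 0.13 (SE, edgeR adjusted p = 1.4e-113).

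Growth factor and receptor genes of the list were low in level and large in change. Csf1, the ligand of the receptor on which microglia depend, stood at 99.7, 99.9 and 61.5 CPM against 8.72, 9.52 and 9.56 CPM, a log2 change of 3.31 ± 0.32 (SE, edgeR adjusted p = 4.73e-23). Axl, a TAM receptor that takes up apoptotic cells, stood at 49.8, 47.0 and 111 CPM against 2.33, 1.28 and 2.43 CPM, a log2 change of 5.05 ± 0.53 (SE, edgeR adjusted p = 7.61e-19). It was detected in 28 members and in 0.754% of cells without markers. Igf1, a growth factor gene, stood at 36, 23.5 and 24.6 CPM against 1.54, 1.04 and 1.31 CPM and was detected in 16 members. None of these 3 genes overlapped between the populations. Trem2, the lipid-sensing receptor, did not pass the test, at 3129, 3383 and 2823 CPM against 2709, 2760 and 2561 CPM (log2 change 0.25 ± 0.13 SE, edgeR adjusted p = 0.221).

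**Figure D2:**
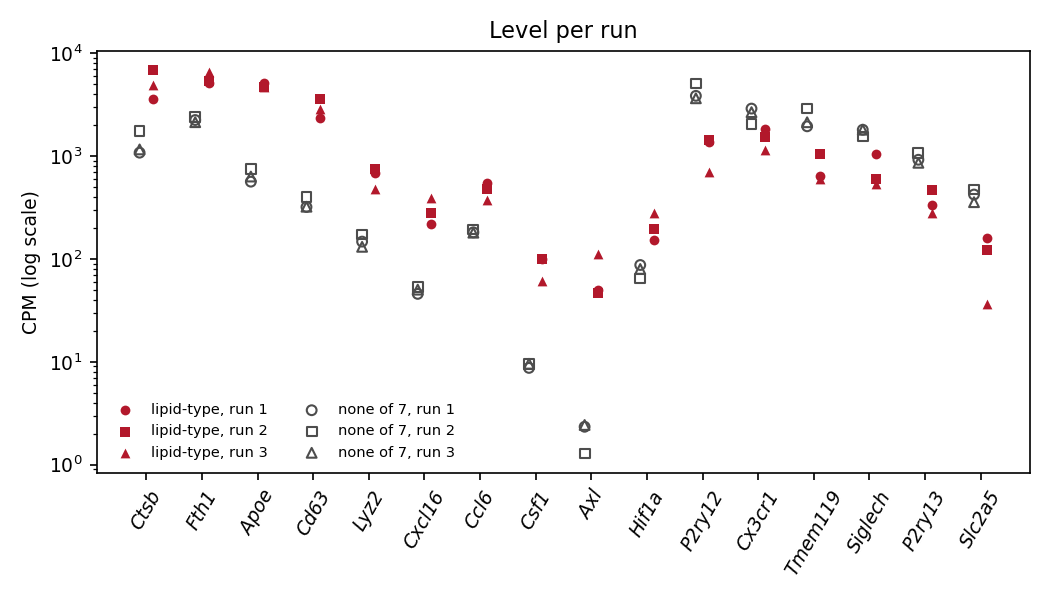
CPM on a log axis of 16 genes in lipid-type cells (filled) and cells with none of the markers (open), with 1 point per run. The lipid-type points lie above the others for the first 10 genes and below them for the last 6, in each run.

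Genes of lipid handling were mostly higher. Of 22 tested, 13 were higher and 1 lower, with a median log2 change of 1.39. The largest changes that passed, above that of Apoe, belonged to genes found in few cells. Cd36, a scavenger receptor for oxidised lipids and fatty acids, was at 8.31, 23.5 and 12.3 CPM against 0.108, 0.0947 and 0.194 CPM, from 9 UMIs in 7 members (log2 change 6.66 ± 1.25 SE, edgeR adjusted p = 3.54e-06). Apoc1, an apolipoprotein gene, was found in 5 members (log2 change 3.98 ± 1.32 SE, edgeR adjusted p = 0.0239). Fabp5, which codes for a fatty acid binding protein, was at 5.54, 17.6 and 55.4 CPM against 3.16, 2.56 and 2.48 CPM, with 7 of its 14 UMIs in 1 member.

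Further genes of this list, named after their values were seen, were measured in more cells. Nceh1, which hydrolyses stored cholesterol esters, stood at 94.1, 82.2 and 36.9 CPM against 13.1, 14.3 and 13.4 CPM, with a UMI in 38 members (log2 change 2.52 ± 0.31 SE). Plin2, the coat protein of lipid droplets, stood at 52.6, 64.6 and 111 CPM against 19.8, 22.4 and 20.6 CPM (log2 change 1.81 ± 0.29 SE). The sole lower gene was Mgll, which codes for monoacylglycerol lipase, at 108, 88.1 and 61.5 CPM against 136, 130 and 145 CPM (log2 change -0.55 ± 0.20 SE, edgeR adjusted p = 0.042). Each of the 3 genes was without overlap between the populations.

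Lysosomal genes moved unevenly. Of 25 tested, 15 were higher and 1 lower, with a median log2 change of 0.77, and 9 did not pass. Lyz2, the macrophage lysozyme, stood at 687, 746 and 480 CPM against 148, 173 and 131 CPM (log2 change 2.12 ± 0.14 SE, edgeR adjusted p = 2.58e-48). The cysteine protease gene Ctsb was at 3644, 6914 and 4927 CPM against 1083, 1759 and 1165 CPM (log2 change 1.97 ± 0.13 SE, edgeR adjusted p = 1.24e-47). Ctsz, another cathepsin gene, was at 3746, 5193 and 4306 CPM against 1506, 1768 and 1423 CPM (log2 change 1.52 ± 0.13 SE, edgeR adjusted p = 4.25e-29). All 3 were without overlap. Ctsd, whose promoter is printed above, had a log2 change of 0.92 ± 0.14 (SE, edgeR adjusted p = 6.63e-10). The sole lower gene, named after its value was seen, was the lysosomal membrane gene Laptm5 (log2 change -0.38 ± 0.13 SE, edgeR adjusted p = 0.033). Without the run block, 10 lysosomal genes were higher and 0 lower.

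Receptors and bridging molecules of uptake were split. Of 22 tested, 6 were higher and 6 lower, with a median log2 change of -0.06. Besides Axl, the complement receptors C3ar1 (log2 change 1.51 ± 0.14 SE) and C5ar1 (1.04 ± 0.17 SE) and the Fc receptor Fcgr4 (1.74 ± 0.48 SE) were higher. Elmo1, which links uptake receptors to the cytoskeleton, was at 177, 141 and 197 CPM against 450, 313 and 475 CPM (log2 change -1.23 ± 0.17 SE, edgeR adjusted p = 2.81e-11). Mertk, a TAM receptor like Axl and named here after its value was seen, was at 357, 206 and 277 CPM against 515, 358 and 524 CPM (log2 change -0.67 ± 0.15 SE, edgeR adjusted p = 0.000246). The 2 TAM receptors thus went in opposite directions, and neither overlapped between the populations. C1qa, which codes for a chain of complement C1q, did not pass (log2 change -0.06 ± 0.13 SE, edgeR adjusted p = 0.862). The split itself depended on the block: without it, 3 genes of the list were higher and 1 lower.

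Homeostatic microglial genes were lower. Of 25 tested, 20 were lower and 0 higher, with a median log2 change of -0.73, and 12 were lower without the run block. P2ry12, the receptor by which microglial processes follow nucleotides, stood at 1387, 1451 and 701 CPM against 3869, 5102 and 3663 CPM. Its populations did not overlap, and its log2 change was -1.82 ± 0.14 (SE, edgeR adjusted p = 6.81e-37). It was still detected in 93 of 100 members. Tmem119, a microglia-specific membrane protein gene, stood at 640, 1063 and 603 CPM against 1955, 2908 and 2141 CPM (log2 change -1.59 ± 0.14 SE, edgeR adjusted p = 7.94e-28). The fructose transporter gene Slc2a5 was at 161, 123 and 36.9 CPM against 424, 476 and 357 CPM (log2 change -1.83 ± 0.18 SE, edgeR adjusted p = 1.59e-21).

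The other leading genes of that list were Selplg, an adhesion ligand gene (log2 change -1.71 ± 0.14 SE), and P2ry13, a second nucleotide receptor gene (-1.37 ± 0.15 SE). Transcription factors mostly did not pass: of 19 tested, 2 were higher and 3 lower. Sall1, which maintains microglial identity, was at 169, 129 and 166 CPM against 347, 260 and 372 CPM (log2 change -1.02 ± 0.17 SE, edgeR adjusted p = 1.35e-07). Maf (log2 change -1.05 ± 0.14 SE) and Mef2a (-1.0 ± 0.15 SE), both expressed in homeostatic microglia, were lower as well. Mitf, a driver of lysosomal and phagocytic genes, was at 63.7, 35.2 and 43.1 CPM against 26.2, 19.3 and 31.5 CPM (log2 change 1.03 ± 0.31 SE, edgeR adjusted p = 0.012). Tfeb, its relative, did not pass (log2 change 0.26).

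**Figure D3:**
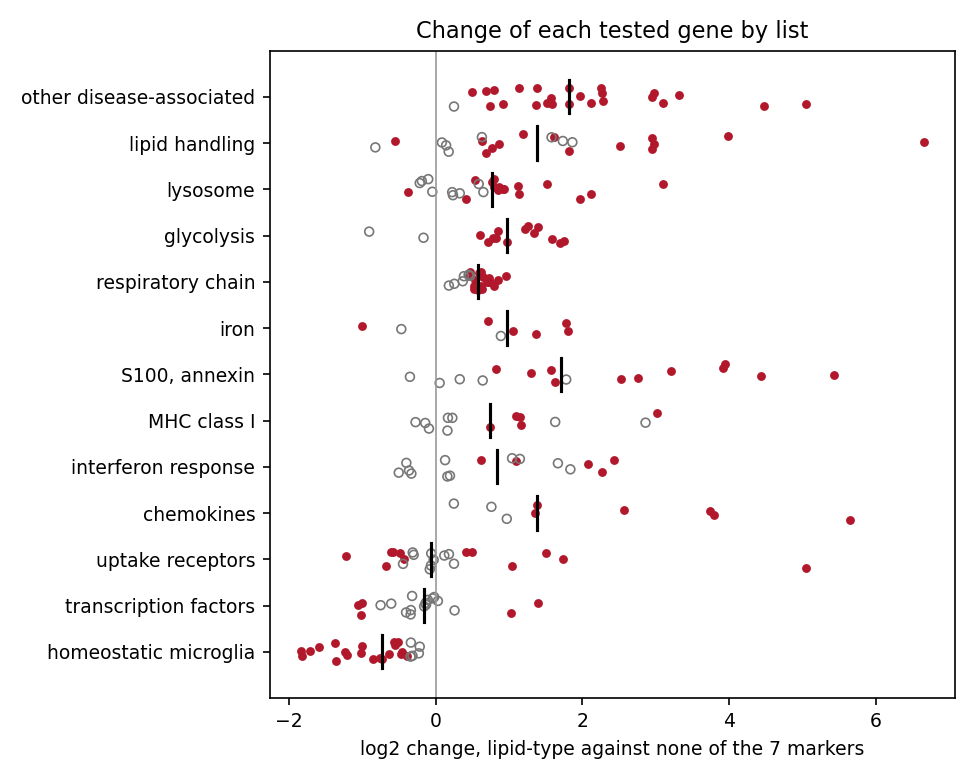
Log2 change of each tested gene by list, lipid-type cells against cells with none of the markers; filled points passed the edgeR test, open points did not and the black bar is the median of the list. The medians run from 1.81 for other disease-associated genes to -0.73 for homeostatic genes.

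Metabolic genes were higher as a group. Of 15 tested glycolytic genes, 13 were higher and 0 lower, with a median log2 change of 0.97. The triose-phosphate isomerase gene Tpi1 was at 202, 364 and 172 CPM against 64.4, 94.1 and 61.2 CPM (log2 change 1.76 ± 0.16 SE, edgeR adjusted p = 1.57e-24). Pkm, the gene of pyruvate kinase, was at 368, 505 and 468 CPM against 135, 177 and 143 CPM (log2 change 1.58 ± 0.14 SE, edgeR adjusted p = 1.16e-25). Hif1a, the oxygen-regulated factor that induces glycolytic genes, was at 152, 194 and 283 CPM against 87.5, 64.5 and 80.0 CPM (log2 change 1.39 ± 0.17 SE, edgeR adjusted p = 4.54e-14). None of the 3 overlapped. Without the block 9 glycolytic genes were higher.

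Of 26 nuclear genes of the respiratory chain, 20 were higher and 0 lower, with a smaller median log2 change of 0.58. Atp5g1, an ATP synthase subunit gene, was at 274, 388 and 221 CPM against 151, 168 and 142 CPM (log2 change 0.96 ± 0.15 SE, edgeR adjusted p = 2.6e-08). This group was less firm, with 5 genes higher without the run block, 10 without run 1 and 12 among cells of 4000 to 12000 UMIs. It was not the only RNA to move this way: 12 of 13 mitochondrially encoded genes and 48 of 95 ribosomal protein genes were higher too. The median mitochondrial share was 4.0%, 3.15% and 5.45% of UMIs in lipid-type cells of runs 1, 2 and 3 and 2.57%, 2.09% and 2.55% in cells without markers. When cells of at most 5% mitochondrial and at least 2000 UMIs were used, 2 of the nuclear respiratory genes were higher and 11 of the glycolytic ones. The part of depth and of mitochondrial RNA in these changes was not tested.

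Iron genes changed in both directions. Of 8 tested, 5 were higher and 1 lower. The ferritin chains Ftl1 (log2 change 1.78 ± 0.13 SE) and Fth1 (1.36 ± 0.13 SE), which store iron, were detected in all 100 members. Hmox1, which frees iron from haem, was at 69.2, 153 and 86.1 CPM against 27.4, 36.8 and 21.1 CPM (log2 change 1.80 ± 0.26 SE, edgeR adjusted p = 4.82e-10). The iron exporter gene Slc40a1 was at 66.5, 23.5 and 92.3 CPM against 136, 113 and 126 CPM (log2 change -1.01 ± 0.22 SE, edgeR adjusted p = 0.000145).

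Genes of the S100, annexin and cytoskeletal list were higher in 11 of 16 and lower in 0, with a median log2 change of 1.71. Vim, the intermediate filament gene, was at 30.5, 47.0 and 49.2 CPM against 2.94, 2.37 and 2.86 CPM (log2 change 3.92 ± 0.57 SE, edgeR adjusted p = 6.48e-10). It had 27 UMIs in 13 members, 6 of them from the 2 cells with few microglia markers. Without these cells Vim stood at 30.5, 12.0 and 53.8 CPM. Lgals1, which codes for galectin-1, was at 66.5, 94.0 and 246 CPM against 2.48, 3.93 and 2.28 CPM (log2 change 5.43 ± 0.42 SE, edgeR adjusted p = 1.23e-35). Of its 80 UMIs in members, 33 came from the 2 cells with few microglia markers, and without them it stood at 66.5, 95.7 and 47.1 CPM. For S100a6, all 13 UMIs came from 1 of those cells, so its call says nothing of the other members.

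Secreted factors that act on neural progenitors are of interest in a neurogenic niche. Of 8 tested genes of such a list, 4 were higher and 1 lower. After Igf1, the largest change belonged to Pdgfa, a growth factor for oligodendrocyte progenitors, at 125, 106 and 111 CPM against 41.4, 48.6 and 42.7 CPM (log2 change 1.44 ± 0.22 SE, edgeR adjusted p = 3.73e-09), without overlap. Pdgfb, its relative, was at 119, 141 and 98.4 CPM against 168, 196 and 212 CPM (log2 change -0.60 ± 0.18 SE, edgeR adjusted p = 0.0104). Grn, the progranulin gene, had a log2 change of 0.77 ± 0.13 (SE, edgeR adjusted p = 9.69e-08), with ranges that overlapped between the populations.

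Chemokine genes were higher in part, some of them very unevenly between runs. Of 9 tested, 6 were higher and 0 lower. Cxcl16, a membrane-bound chemokine that also binds oxidised lipids, stood at 219, 282 and 394 CPM against 45.8, 53.2 and 50.3 CPM, without overlap (log2 change 2.57 ± 0.16 SE, edgeR adjusted p = 1.83e-55). Ccl6, a macrophage chemokine gene, stood at 548, 476 and 375 CPM against 182, 194 and 180 CPM, also without overlap (log2 change 1.38 ± 0.14 SE, edgeR adjusted p = 1.71e-19).

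Ccl3, Ccl4 and Ccl5, which code for inflammatory chemokines, were uneven between runs. Ccl3 stood at 133, 182 and 1735 CPM against 18.5, 38.4 and 49.3 CPM, and 235 of its 361 UMIs in members came from the run 3 cell with T and NK markers. Its log2 change was 3.80 ± 0.16 (SE, edgeR adjusted p = 1.62e-117), with an adjusted p of 0.271 in a robust edgeR fit that lets a gene keep its own spread, and it was 2.65 ± 0.19 (SE, edgeR adjusted p = 9.39e-40) without the 2 cells. Ccl4 stood at 85.8, 352 and 3371 CPM against 38.4, 49.8 and 54.3 CPM, with 528 of 639 UMIs in that cell and a robust adjusted p of 0.437. In cells of 4000 to 12000 UMIs its log2 change was 0.39 and did not pass (edgeR adjusted p = 0.351). Ccl5 stood at 0, 106 and 1532 CPM against 4.63, 5.54 and 6.07 CPM, so its ranges overlapped, with 242 of 267 UMIs in the 2 cells and a robust adjusted p of 0.413. Without the 2 cells 6 genes of the list were higher, and in the robust fit 3. The 6 include Ccl5, which then stood at 0, 0 and 168 CPM in runs 1, 2 and 3, so that call rests on run 3 alone.

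**Figure D4:**
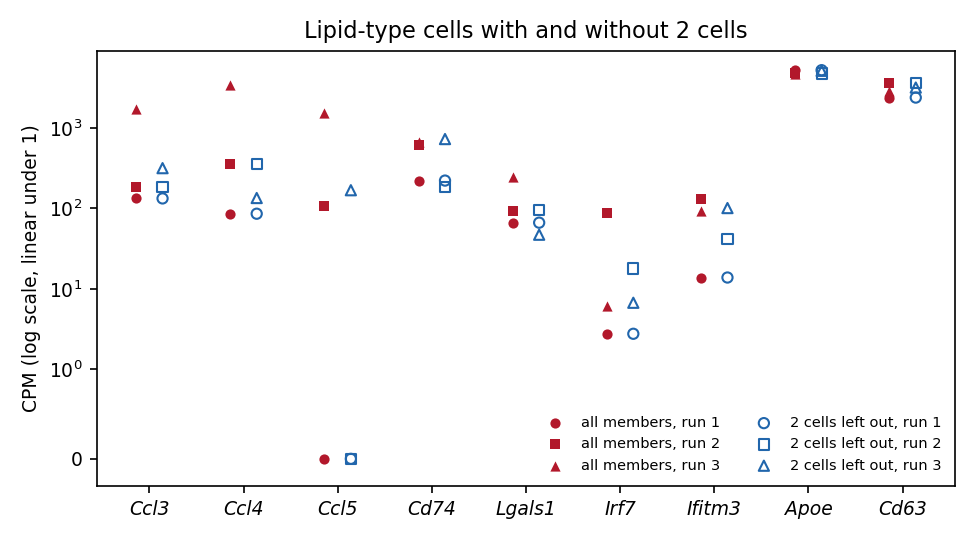
CPM per run in all lipid-type cells (filled) and without the 2 cells that carried fewer than 5 of 8 microglia markers (open), on an axis that is logarithmic above 1. Ccl3, Ccl4, Ccl5 and Lgals1 in run 3 and Irf7 and Cd74 in run 2 fall when these cells are left out, while the points of Apoe and Cd63 barely move.

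Other immune groups rested partly on the same cells. Of 16 interferon-response genes, 5 were higher and 0 lower. Ifi27l2a, an interferon-induced membrane protein gene, was at 119, 200 and 111 CPM against 25.1, 27.2 and 27.8 CPM, with a UMI in 19 members (log2 change 2.43 ± 0.23 SE, edgeR adjusted p = 1.56e-22). Of its 95 UMIs in members, 17 lay in 1 of the 2 cells with few microglia markers. Without both cells it stood at 119, 114 and 108 CPM. Irf7, a transcription factor of that response, was at 2.77, 88.1 and 6.15 CPM against 4.95, 6.06 and 3.88 CPM, with 12 of its 17 UMIs in 1 cell, and lost its call without the 2 cells (log2 change 0.63, edgeR adjusted p = 0.748). Tnf lost its call in the same way, from a log2 change of 2.35 to 1.06 (edgeR adjusted p = 0.611).

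Antigen presentation genes were called in part. Of 13 MHC class I genes, 5 were higher and 0 lower, among them H2-K1 at 604, 887 and 1027 CPM against 333, 431 and 362 CPM (log2 change 1.17 ± 0.13 SE, edgeR adjusted p = 4.47e-16). Cd74, the invariant chain that escorts MHC class II, was at 222, 611 and 664 CPM against 20.9, 23.2 and 25.4 CPM and was detected in 59 members (log2 change 4.33 ± 0.15 SE, edgeR adjusted p = 2.07e-176). Of its 292 UMIs, 73 lay in 1 of the 2 cells, and without both it was still 3.90 ± 0.17 (SE) higher on the log2 scale. It was the sole gene called among 5 tested MHC class II genes outside the rule, which itself limits the class II level of members.

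Among inflammatory and cell cycle genes, calls were mixed. Of 15 NF-kB genes, 4 were higher and 1 lower. Of 11 early genes, 1 was higher and 4 lower, with Rhob, a small GTPase gene, at 659, 734 and 720 CPM against 1350, 1532 and 1793 CPM (log2 change -1.09 ± 0.14 SE, edgeR adjusted p = 1.48e-13). Cytokine genes gave 1 higher and 1 lower of 7. Of 14 cell cycle genes, 7 were higher and 0 lower, but 2 without the run block. Mki67 was found in 3 members, and 10 of the 12 Top2a UMIs came from 1 member.

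The largest changes outside the lists were of genes with few UMIs. Rab7b, a lysosomal trafficking GTPase gene, was at 44.3, 17.6 and 24.6 CPM against 0.215, 0.0947 and 0.0971 CPM. It had a UMI in 14 of 100 members and in 0.0518% of cells without markers (log2 change 7.67 ± 0.92 SE, edgeR adjusted p = 1.32e-14). Cybb, the catalytic subunit of the phagocyte NADPH oxidase, was at 41.5, 23.5 and 123 CPM against 0.538, 0.521 and 1.17 CPM, also with a UMI in 14 members (log2 change 6.32 ± 0.65 SE, edgeR adjusted p = 4.54e-20). Rai14 (log2 change 5.61), the secretory pathway kinase gene Fam20c (5.05), the sulfotransferase gene Chst2 (4.83), Gas2l3 (4.52) and the adhesion gene Vcam1 (4.28) were each detected in 13 to 26 members. Slamf7, a lymphocyte and macrophage receptor gene, had 12 UMIs in members, 9 of them from the 2 cells with few microglia markers.

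Of the 12 leading lower genes, 8 had 1 to 3 UMIs in all members together, and such genes are given as ratios of CPM with their 95% counting intervals. Enpp2, which codes for autotaxin, was at 0.0631 times its level in cells without markers (0.00160 to 0.352), Tmem52 at 0.0996 (0.0120 to 0.360), Spry1, an inhibitor of growth factor signals, at 0.124 (0.0149 to 0.447), and Tmem204 at 0.135 (0.0277 to 0.394). Enpp2 and Ttr, the transthyretin gene, are markers of choroid plexus. Neither was detected in a smaller share of members. Enpp2 had a UMI in 1 of 100 members and in 0.536% of cells without markers, Ttr in 8 members and in 4.27%. The 1589 Enpp2 UMIs of cells without markers lay in that small share of them. The interval of Enpp2 takes UMIs as independent and is therefore too narrow. Ttr was at 83.1, 11.8 and 0 CPM against 479, 951 and 74.4 CPM, which overlapped, and the level in cells without markers itself varied several-fold between runs (log2 change -3.46 ± 0.23 SE). Upk1b, a uroplakin gene of the tetraspanin family, was at 16.6, 11.8 and 6.15 CPM against 90.9, 103 and 84.5 CPM (log2 change -2.80 ± 0.35 SE, edgeR adjusted p = 2.37e-13).

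Markers of other cell types were not called higher in any list where genes could be tested, and no T, NK or neutrophil marker had the counts to be tested. Lower were Slc1a3 of astrocytes, Mag of oligodendrocytes, Pecam1 of endothelium, Cd79b of B cells, and Enpp2 and Ttr of choroid plexus. Most of these calls were not firm: of 18 alternative settings, the call was lost in 10 for Mag, 10 for Pecam1, 8 for Enpp2, 6 for Slc1a3, 4 for Cd79b and 0 for Ttr. Enpp2 and Ttr were lower in level, and not in the share of cells with a UMI, as given above. The astrocyte list summed to 154 to 206 CPM over the runs in lipid-type cells and to 246 to 385 CPM in cells without markers, the border macrophage list to 235 to 318 against 300 to 388 CPM, and the neuron list to 0 to 13.8 against 3.83 to 11.5 CPM. Several listed genes were common in cells without markers: Slc1a3 was in 58.9%, Stab1 of the border macrophage list in 58.3%, Ms4a6c of that list in 26.5% and Cd79b in 20.8%. These genes made up most of the astrocyte and border macrophage sums and the B cell call. Those values therefore do not measure RNA of the other cell types. Gfap and Aqp4 of astrocytes, Mog of oligodendrocytes and Flt3 of dendritic cells had no UMI in members. Their part in the results was not tested.

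The levels of many genes moved with the number of markers. Apoe stood at 566, 753 and 634 CPM with no marker in runs 1, 2 and 3, at 1333, 1664 and 1485 CPM with 1, at 2825, 4270 and 3257 CPM with 2, and at 5208, 4740 and 4681 CPM in members. Cd63 was higher at each of the same steps, with 596, 778 and 659 CPM with 1 marker and 1429, 2297 and 1847 CPM with 2. P2ry12 was lower at each step, with 3264, 4220 and 3050 CPM with 1 marker and 1953, 2211 and 1601 CPM with 2. A higher level at every one of these steps in all 3 runs was seen for 13 of 27 disease-associated genes outside the rule, 10 of 26 lysosomal and 8 of 15 glycolytic genes, and a lower one for 20 of 25 homeostatic genes. Of all 11219 genes tested, 1.73% were higher and 2.81% lower at every step. These are descriptions along the scale that chose the cells, and deeper cells also show more markers.

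**Figure D5:**
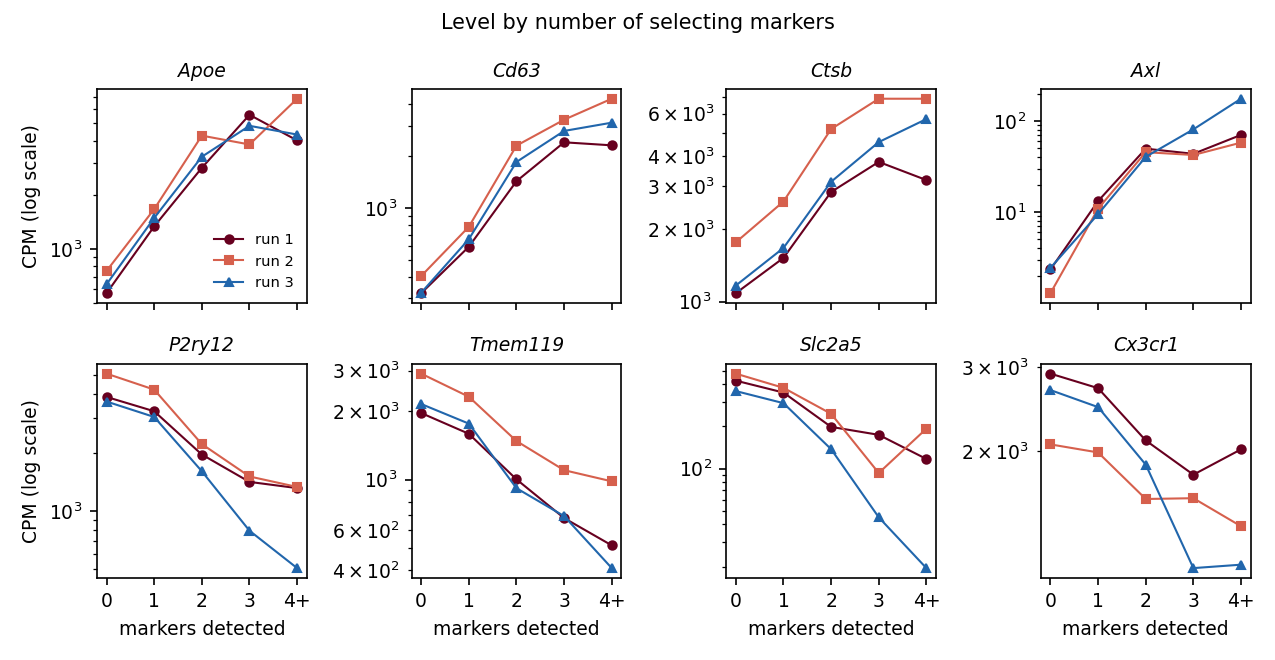
CPM on log axes of 8 genes by the number of selecting markers detected (0, 1, 2, 3, 4 or more), with 1 line per run. Apoe, Cd63, Ctsb and Axl increase and P2ry12, Tmem119, Slc2a5 and Cx3cr1 decrease from 0 to 2 markers in each run; beyond 3 markers, where 7, 9 and 7 cells remain, lines cross.

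Chemokine-rich cells without the markers were set beside the members. Cells with none of the markers and at least 10 summed UMIs of Ccl3 and Ccl4 numbered 19, 19 and 30 by run, too few for the planned minimum of 20 in each run, so values stand without a test. Apoe stood there at 653, 2133 and 1358 CPM, below the members in each run. Cd63 stood at 802, 1000 and 847 CPM, and Axl at 0, 0 and 7.99 CPM, likewise below. Csf1 stood at 150, 205 and 104 CPM, above the members in each run, and P2ry12 at 1925, 2652 and 2604 CPM, between members and cells without markers. The states met in some cells, since 8 of 100 members and 0.392% of cells without markers had at least 10 summed UMIs of the 2 chemokines. One of the 8 is the run 3 cell with T and NK markers, which leaves 7 of the 98 members with 5 or more microglia markers. After thinning to 2000 UMIs, 1 of the 26 cells that then met the rule reached that count, as did 0.271% of cells then without markers. As given above, those 26 are not all members. Cells of the rule's excluded kinds carried more Apoe than members, 25310, 29660 and 9822 CPM in MHC class II-high cells and 24700, 49740 and 48690 CPM in border macrophage-marked cells, yet less Cd63, at 475, 930 and 184 CPM and at 667, 1024 and 1139 CPM.

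Some members also held other states. An interferon signature of 3 or more of 10 genes was held by 5 of 100 members and 1.28% of cells without markers, and 3 or more of 8 cycling genes by 2 members and 0.190%. At least 10 summed early gene UMIs were found in 8 members, all in run 3, where 22.8% of cells without markers had them too. Among members, 42, 29 and 20 in runs 1, 2 and 3 had Itgax or Cst7 and 3 in each run had neither, too few for a test between them.

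Cells were last divided by sex-linked transcripts, since both sexes were pooled. Members were 0.876%, 0.482% and 0.394% of cells with Xist in runs 1, 2 and 3 and 0.467%, 0.298% and 0.485% of cells with Y-linked transcripts. The difference of 0.167 ± 0.25 percentage points (SD, n = 3 runs) did not have the same sign in all runs (exact two-sided permutation test p = 0.5, where 3 runs allow no less than 0.25). After thinning to 2000 UMIs it was 0.027 percentage points. The change between lipid-type cells and cells without markers differed by sex-linked class in 8 of 9990 genes (0.0801%, edgeR interaction term), among them Ccl3, Ccl4, Ccl5 and Ccl6. Of these, Ccl3 and Ccl4 did not pass without the 2 cells with few microglia markers (edgeR adjusted p = 0.898 and 0.982), and none of the 8 passed without the run block (edgeR adjusted p = 0.925). Ccl5 passed without the 2 cells, but Xist members then had no UMI of it and its direction was not kept.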

How the data were processed

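Single-cell RNA libraries were made with 10x reagents from sorted hippocampal cells. The deposited files hold raw UMI counts per gene and barcode, which the authors made with Cell Ranger on mm10, per the submitters' processing notes, which also name Seurat 4.0. Per the file headers, the software had version 3.0.2 for run 1 and 3.1.0 for runs 2 and 3. How barcodes were chosen and why Clec7a has no row are not given in the sources used here. Of 31053 gene IDs, 30934 matched the GENCODE M21 annotation of GRCm38.

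The members and the gene lists were chosen with earlier results of these data known, so no list is independent evidence. Levels in CPM come from the same deposited counts; ratios within a run were taken after adding 1 CPM. Counts summed per run and population were tested with edgeR 4.0.16 in R 4.3.3 (glmQLFit, glmQLFTest, TMM scaling, filterByExpr, run as a block, Benjamini-Hochberg adjustment over all genes, threshold 0.05). SE was taken as the log2 change over the root of F. The sums of a run share 1 library, and how far they lay from their population's mean correlated across genes (which are not independent) at 0.214, 0.247 and 0.161 for runs 1, 2 and 3. The prior degrees of freedom were infinite, with a common dispersion of 0.0108. The 16 genes of the rule were not tested. The text names up to 12 genes in each direction, ranked by size of change, from called genes that changed by 1 or more on the log2 scale, reached 20 CPM in one population and kept their sign in 3 runs. Ribosomal, mitochondrial and unnamed genes were passed over. From each list up to 5 called genes that reached 5 CPM are named. Others are said to be named after their values were seen, or did not pass, or serve an earlier result.

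Lists were written from general knowledge. The class with Xist had 2 or more Xist UMIs and none from 4 Y-linked genes. The Y-linked class had 1 or more UMIs of those genes and none of Xist. Thinning was to 2000 UMIs per cell and left out cells with fewer. The rule with its unchanged exclusion limits was then applied to the thinned counts, so the lipid-type cells after thinning are not all members. On simulated counts for the comparison with cells without markers (11159 genes), 78.0% of genes with a true log2 change of 2, 52.9% of those with 1, 30.0% of those with -1 and 51.7% of those with -2 were recovered, and 5 of 10960 unchanged genes were called. The simulation gave every gene the same spread, close to that of the fit, and drew the sums independently. Its few false calls therefore say nothing of genes more uneven than that or of sums that share a library. Alternatives were other scaling, DESeq2 1.42.0, other filters on genes and cells, other marker thresholds, thinning, no block and leaving out each run. The last rounds of alternatives (2 or more markers, a depth window, cells with glial or neuronal markers or with few microglia markers left out, a robust fit) were chosen after seeing the data.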

Additional observations from a re-analysis of the deposited data

Results flagged for a closer look

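For 8 genes, the change between lipid-type cells and cells without markers differed between cells with Y-linked transcripts and cells with Xist transcripts by edgeR's interaction term. Members in these classes numbered 24, 17 and 10 cells with Xist and 11, 4 and 8 with Y-linked transcripts in runs 1, 2 and 3, so some sums came from few cells. Differences are the change in Y-linked cells minus that in Xist cells, on the log2 scale. Of 10004 genes fitted, 570 had an unadjusted p under 0.05.

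Ccl6, the macrophage chemokine gene, differed the same way in each run. In members it stood at 763, 504 and 567 CPM in Xist cells of runs 1, 2 and 3 and at 318, 42.2 and 157 CPM in Y-linked cells, lower in 3 of 3 runs and without overlap. In run 1, 1 Xist member held 76 of 144 Ccl6 UMIs, and without it the value was 408 CPM, still above the Y-linked members of that run. The run 2 value of Y-linked members is 1 UMI. In cells without markers it stood at 173, 200 and 195 CPM in Xist cells and at 193, 193 and 167 CPM in Y-linked cells. The difference was -1.61 ± 0.27 (SE, edgeR adjusted p = 9.27e-06). The adjusted p was 1.41e-05 without the 2 cells with few microglia markers, ran from 0.000471 to 0.0041 when single runs were left out, and was 0.925 without the run block.

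Single cells also weighed on the other 7 genes. Ccl4 differed by -3.56 ± 0.31 (SE, edgeR adjusted p = 4.19e-26), with 6427 CPM in Xist members of run 3, where the cell with T and NK markers lies. Ccl3 differed by -1.98 and Ccl5 by -2.40, and Ccl3 and Ccl4 did not pass without the 2 cells. Gbp2, a gene of an interferon-induced GTPase, differed by 11.67, which is no bound because all of its 18 UMIs in members of these classes lay in Y-linked cells of run 2. Ifitm3 differed by 3.08, Cd74 by 1.14 and Irf7 by 4.10, with 632, 3162 and 506 CPM in Y-linked members of run 2, where the other cell lies. Without the 2 cells 2 genes were called, Ccl5 and Ccl6. For Ccl5 this is not the same difference. All 224 UMIs of Xist members lay in the run 3 cell with T and NK markers. The 18 UMIs of Y-linked members of run 2 lay in the other cell. Without both, Xist members held no Ccl5 UMI and Y-linked members held 25, all in run 3. The lower level in Y-linked members was therefore not kept. Without the run block 0 were called by edgeR, with 498 at an unadjusted p under 0.05.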

How the results depend on the processing

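Against 1486 called genes, 656 were called with no replicate block, 845 by DESeq2's Wald test, 817 with stricter cell filters (at least 2000 UMIs, at most 5% mitochondrial), 377 after thinning, 569 with at least 4 markers, 2621 with at least 2, and 925 to 1050 without single runs, of which the fewest remained without run 1. Of the 377, 340 were lower. Calls shared with the main test had the same direction under each alternative, except 1 of 286 after thinning. The interaction gave 8 calls, against 0 with no replicate block, 2 without the cells of few microglia markers and 4 to 8 without single runs, with 4 without run 2. The share of 0.499% became 0.116% with at least 4 markers, 1.68% with at least 2, 0.344% without Spp1, 0.936% in cells of 4000 to 12000 UMIs and 0.137% after thinning. After thinning, the median of all genes was -1.16 (main test -0.10), and log2 changes turned to -0.03 for Grn, -7.22 for Top2a, -8.94 for Mcm6, -10.89 for Stmn1, -0.03 for Pkm, -0.04 for Uqcrq, -0.55 for Cox5a, -0.02 for B2m and -0.68 for Slc11a2, and list medians to -0.98 (neurogenesis), -0.60 (NF-kB), -0.49 (cell cycle), -0.07 (respiratory chain) and -0.03 (iron). All of these but the 3 of genes with no UMI left lie above that median of all genes. With at least 4 markers the median of all genes was -0.39, Irf7 turned to -8.86, Mki67 to -8.29 and Top2a to -8.59, and the medians to -0.21 (interferon) and -3.98 (cell cycle). With stricter cell filters Mki67 was at -0.60 and Top2a at -8.59. Without single runs Irf7 ran from -0.19 to 3.13 and Top2a from -0.31 to 3.11. With no filter on low counts the neurogenesis median was -0.03, and that of all genes -0.54. Values under -7 are of genes with no UMI left in the lipid-type cells of that setting. The cause of the other changes was not tested. The alternatives for the comparisons with chemokine-rich cells and between members with and without Itgax or Cst7 were not run, since neither had enough cells for a test. With 23 to 45 members per run, a gene at a few CPM rests on single UMIs.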
